A study of Homo sapiens with 52 samples.

Results

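The INK4 and CIP/KIP families are the inhibitors of cyclin-dependent kinases (CDKs), and their RNA was followed in WI-38 cells, a line of normal human lung fibroblasts that divides a limited number of times. The 7 genes were chosen by name: CDKN1A, CDKN1B and CDKN1C of the CIP/KIP family and CDKN2A, CDKN2B, CDKN2C and CDKN2D of the INK4 family. All 7 are among the 59408 genes listed for mRNA sequencing of these cells and among the 15479 genes with enough reads to be tested, a mean of at least 10 normalized reads over the groups. Cells were exposed for 24 h to 0.009% SDS, a detergent that damages the plasma membrane (PMD-Sen), to 75 mM KCl, which lets Ca2+ into the cells (Ca2+-Sen), or to 250 nM doxorubicin (DXR), which damages DNA (DDR-Sen), and were then washed. Each inducer was followed from day 0 to day 16 after the wash, with collections on each of days 0 to 4 and on days 6, 8 and 16. Replicatively senescent cells (RS) had been passaged to a population doubling level of about 52, and untreated cells were young cells at a level of 32 to 46. There were 2 libraries in each of the 26 groups, which the study's methods describe as independent samples. A single pair of untreated libraries was the control for every day, so time in culture and the inducer cannot be told apart by a control of the same day.

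Passage through the cell cycle is driven by cyclins that activate CDKs, which phosphorylate the retinoblastoma protein RB and so release E2F factors to switch on the genes of DNA replication and mitosis. INK4 proteins bind CDK4 and CDK6 and keep D-type cyclins from activating them, whereas CIP/KIP proteins bind complexes of cyclins with CDKs more widely and block CDK2 in particular. CDKN1A encodes p21, which is induced by DNA damage, and CDKN2A encodes p16INK4A, and both are used as markers of senescence.

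CDKN2A, CDKN2B and the antisense RNA gene CDKN2B-AS1 lie side by side on chromosome 9, and their values cannot be read without that map. In GENCODE coordinates of GRCh38, CDKN2A spans chr9:21967753-21995301 and CDKN2B spans chr9:22002903-22009363, both on the minus strand, while CDKN2B-AS1 spans chr9:21994778-22121097 on the plus strand and so overlaps both. CDKN2A has separate starts for p16INK4A and for p14ARF, a regulator of MDM2 that is read in another frame, and values per gene pool both RNAs. Whether reads were counted by strand is not given in the sources used here. CDKN2A and CDKN2B are therefore uncertain where CDKN2B-AS1 overlaps them, and so is CDKN2B-AS1 itself. CDKN1A lies at chr6:36676460-36687339, CDKN1B at chr12:12715058-12722371, CDKN1C at chr11:2883213-2885773, CDKN2C at chr1:50960745-50974633 and CDKN2D at chr19:10566462-10569059.

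The 250 bases upstream of RefSeq starts (GRCh38.p14) were searched on both strands for the E2F core words TTCCCGC or TTCGCGC or TTGCCGC or TTGGCGC, for the GC box GGGCGG, for TATAAA and for CCAAT, and 9 such windows were found for 6 of the 7 genes. The E2F core stood in 1 of the 9 windows, beside 10.9% of all 35116 windows of this length. That window belongs to CDKN2C, at chr1:50968456-50968705 on the plus strand, and it holds 2 matches whose first bases lie 131 and 34 bases before the start, neither overlapping a GC box. The other 2 windows of CDKN2C, at chr1:50960495-50960744 and chr1:50969995-50970244, hold 0 matches. A GC box stood in 7 of the 9 windows (42.6% of all windows), CCAAT in 3 (32.0%) and TATAAA in 0 (10.7%). The window of CDKN2C that holds the matches is shown with them in capitals, followed by that of CDKN2B (chr9:22009306-22009555, minus strand), whose RNA moved the opposite way, and by the windows of CDKN2A before the p16INK4A start (chr9:21974858-21975107, minus strand) and before the p14ARF start (chr9:21995325-21995574, minus strand), which feed the same value. The last 3 are all in lower case because they hold no such match.
CDKN2C: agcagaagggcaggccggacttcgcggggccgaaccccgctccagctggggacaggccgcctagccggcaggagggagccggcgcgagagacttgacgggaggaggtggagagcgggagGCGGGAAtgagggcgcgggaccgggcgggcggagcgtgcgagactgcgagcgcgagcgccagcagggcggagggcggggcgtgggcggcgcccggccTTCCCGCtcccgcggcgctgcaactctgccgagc
CDKN2B: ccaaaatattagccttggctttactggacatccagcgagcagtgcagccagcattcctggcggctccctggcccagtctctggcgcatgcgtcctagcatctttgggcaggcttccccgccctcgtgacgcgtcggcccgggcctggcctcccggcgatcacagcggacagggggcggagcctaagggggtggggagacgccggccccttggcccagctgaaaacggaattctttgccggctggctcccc
CDKN2A, p16INK4A start: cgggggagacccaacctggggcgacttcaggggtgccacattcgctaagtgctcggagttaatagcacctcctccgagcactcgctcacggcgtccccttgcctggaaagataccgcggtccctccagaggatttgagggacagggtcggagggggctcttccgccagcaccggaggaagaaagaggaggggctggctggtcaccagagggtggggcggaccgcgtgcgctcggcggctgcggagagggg
CDKN2A, p14ARF start: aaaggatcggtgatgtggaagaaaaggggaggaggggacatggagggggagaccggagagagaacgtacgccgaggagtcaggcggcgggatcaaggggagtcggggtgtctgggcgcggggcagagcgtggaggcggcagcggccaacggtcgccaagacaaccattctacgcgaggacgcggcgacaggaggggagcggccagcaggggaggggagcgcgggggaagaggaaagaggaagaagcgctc

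The untreated libraries held 18.8 M and 15.4 M counted reads, and the 50 other libraries held between 19.1 M and 58.0 M with a median of 29.5 M. Levels are normalized reads on a common scale, that of the comparison of RS with untreated cells. The libraries of a group are told apart by size, as the larger and the smaller. Per kilobase of exon, CDKN1A had by far the most RNA of the families, with a median level over the 26 groups of 13963 normalized reads per kb. CDKN1B followed at 292, CDKN2A at 208, CDKN2D at 161, CDKN2B at 141, CDKN2C at 44.6 and CDKN1C at 7.60 normalized reads per kb. The libraries carried fibroblast RNA throughout. The summed level of 9 fibroblast markers lay between 305778 and 787870 normalized reads, led by the collagen genes COL1A1 and COL1A2 in untreated cells, with none at 0. The summed level of 5 epithelial markers lay between 1581 and 4790, mostly the keratin gene KRT18. In untreated cells the sum was 2441, of which KRT18 was 1733, EPCAM 16.3 and KRT5 0.0255, and 2 of the 5 were under 1. The 4 endothelial markers summed to between 33.8 and 221 normalized reads, and the 5 leukocyte markers to between 0.964 and 32.6. Markers moved with the groups. In PMD-Sen, 6 of the 9 fibroblast markers on day 0, 6 on day 1 and 7 on day 2 were called lower, with medians of the log2 fold change of −0.94, −1.08 and −0.86 and sums of 645207, 395177 and 393736 against 746132 in untreated cells. Day 0 of Ca2+-Sen had the lowest fibroblast sum (305778), with 6 of the 9 markers called lower, 2, PDGFRB and LUM, called higher and a median of −0.35. It also had the highest epithelial sum (4790, of which 4107 KRT18) and the highest endothelial sum (220.9), where PECAM1 rose from 2.75 to 135.6 normalized reads (log2 fold change 5.71, SE 0.92) while CDH5 and KDR, which also mark endothelium, were at 1.26 each. VWF, the fourth endothelial marker, was at 82.8 there against 43.6 in untreated cells (log2 fold change 0.92, SE 0.45, Benjamini-Hochberg adjusted p = 0.0773). The leukocyte sum was 19.9 to 32.6 on all days of DDR-Sen, led by PTPRC, against 2.13 in untreated cells and at most 5.85 in any other group. The part of these markers in the results for the inhibitors was not tested.

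Each group was compared with the untreated cells by the Wald test of a negative binomial model, and a gene was called where its p, adjusted by the Benjamini-Hochberg method over all tested genes, was under 0.05. Of 175 results, 7 genes in 25 comparisons, 57 were called higher and 31 lower. In order of day, from day 0 to day 16 of PMD-Sen, the background, the share of all tested genes called, was 38.3%, 18.8%, 15.1%, 10.9%, 14.9%, 12.1%, 11.2% and 20.3%, and 28 of 56 results for the family genes were called. On the same days of Ca2+-Sen it was 48.5%, 11.9%, 4.12%, 9.95%, 11.5%, 9.68%, 31.9% and 11.3%, and 26 of 56 were called. In DDR-Sen it was 26.7%, 18.6%, 12.1%, 11.0%, 17.6%, 23.4%, 21.0% and 28.7%, and 30 of 56 were called. In RS it was 22.3%, and 4 of the 7 genes were called. The calls were shared unevenly between members. CDKN1A was called higher in 24 comparisons, CDKN2B higher in 19 and CDKN2C lower in all 25, whereas CDKN1C was called in 0 and CDKN2D in 1. These genes differ widely in depth, from 2 to 71 reads a library for CDKN1C to between 13784 and 181999 for CDKN1A, and a p that misses the threshold does not show that a gene did not change.

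**Figure D1:**
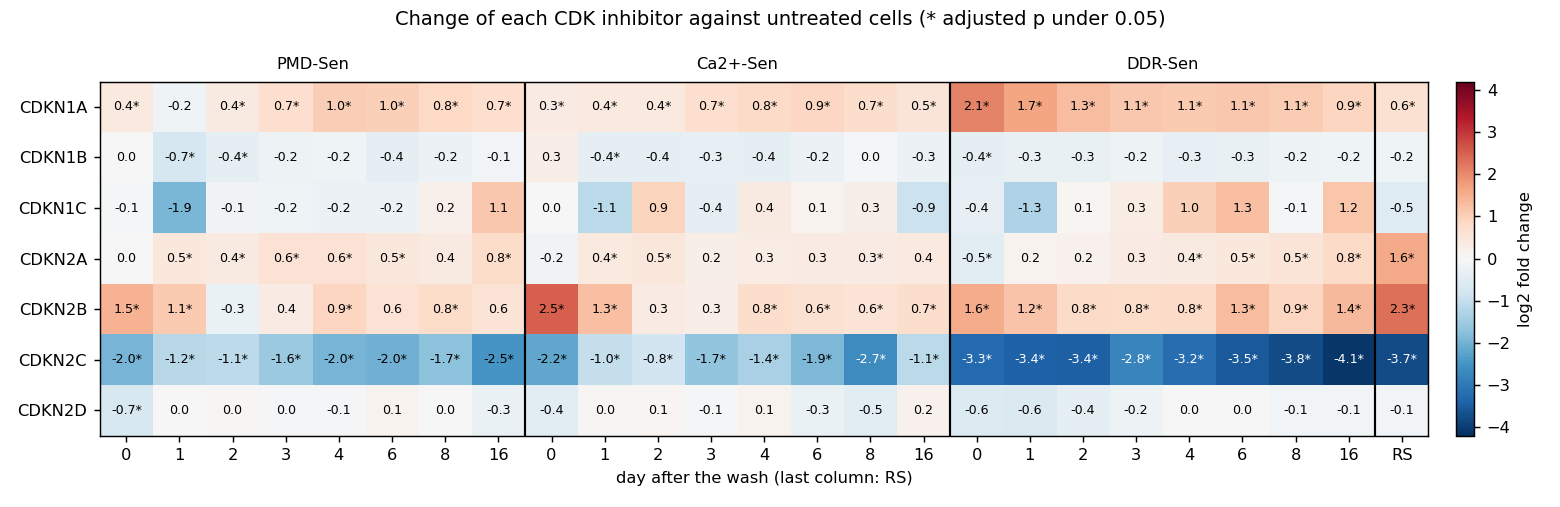
Log2 fold changes against untreated cells for the 7 genes (rows) on 8 days of each inducer and in RS (columns), with colour from lower (blue) to higher (red) and an asterisk at an adjusted p under 0.05. CDKN1A and CDKN2B are mostly red, CDKN2C is blue in all 25 columns, and CDKN1C and CDKN2D carry 0 and 1 asterisks.

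CDKN1A, whose product p21 inhibits CDK2, rose after each inducer, and its time course differed between them. The untreated libraries had 24173 and 26032 normalized reads. Directly after DXR, on day 0 of DDR-Sen, the libraries had 98555 and 114980, a 4.25-fold rise (log2 fold change 2.09, SE 0.11, Benjamini-Hochberg adjusted p = 6.46e-78). By day 16 of DDR-Sen they had 44430 and 49724 (log2 fold change 0.91, SE 0.11, Benjamini-Hochberg adjusted p = 3.37e-15). The level was thus highest at the start of DDR-Sen, and the first 3 places in the order of all groups were days 0, 1 and 2 of DDR-Sen, whose libraries did not overlap. In PMD-Sen the level was lowest on day 1 and highest on day 4. The libraries of day 0 had 31840 and 34360 (log2 fold change 0.40, SE 0.09), those of day 1 had 23098 and 20909, below both untreated libraries but not called (log2 fold change −0.19, SE 0.08, Benjamini-Hochberg adjusted p = 0.109), and those of day 4 had 50766 and 52205 (log2 fold change 1.04, SE 0.08, Benjamini-Hochberg adjusted p = 3.64e-39). In Ca2+-Sen all 8 days were called, from a log2 fold change of 0.35 (SE 0.08) on day 0, with 31637 and 32211 normalized reads, to 0.88 (SE 0.12) on day 6, with 43248 and 49419. RS lay within the range of the inducers, with 38215 and 39968 (log2 fold change 0.64, SE 0.14, Benjamini-Hochberg adjusted p = 5.80e-05). In 24 comparisons both treated libraries lay above both untreated ones. In bulk RNA, fewer cells with the transcript and less of it per cell cannot be told apart, here and for the genes that follow.

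**Figure D2:**
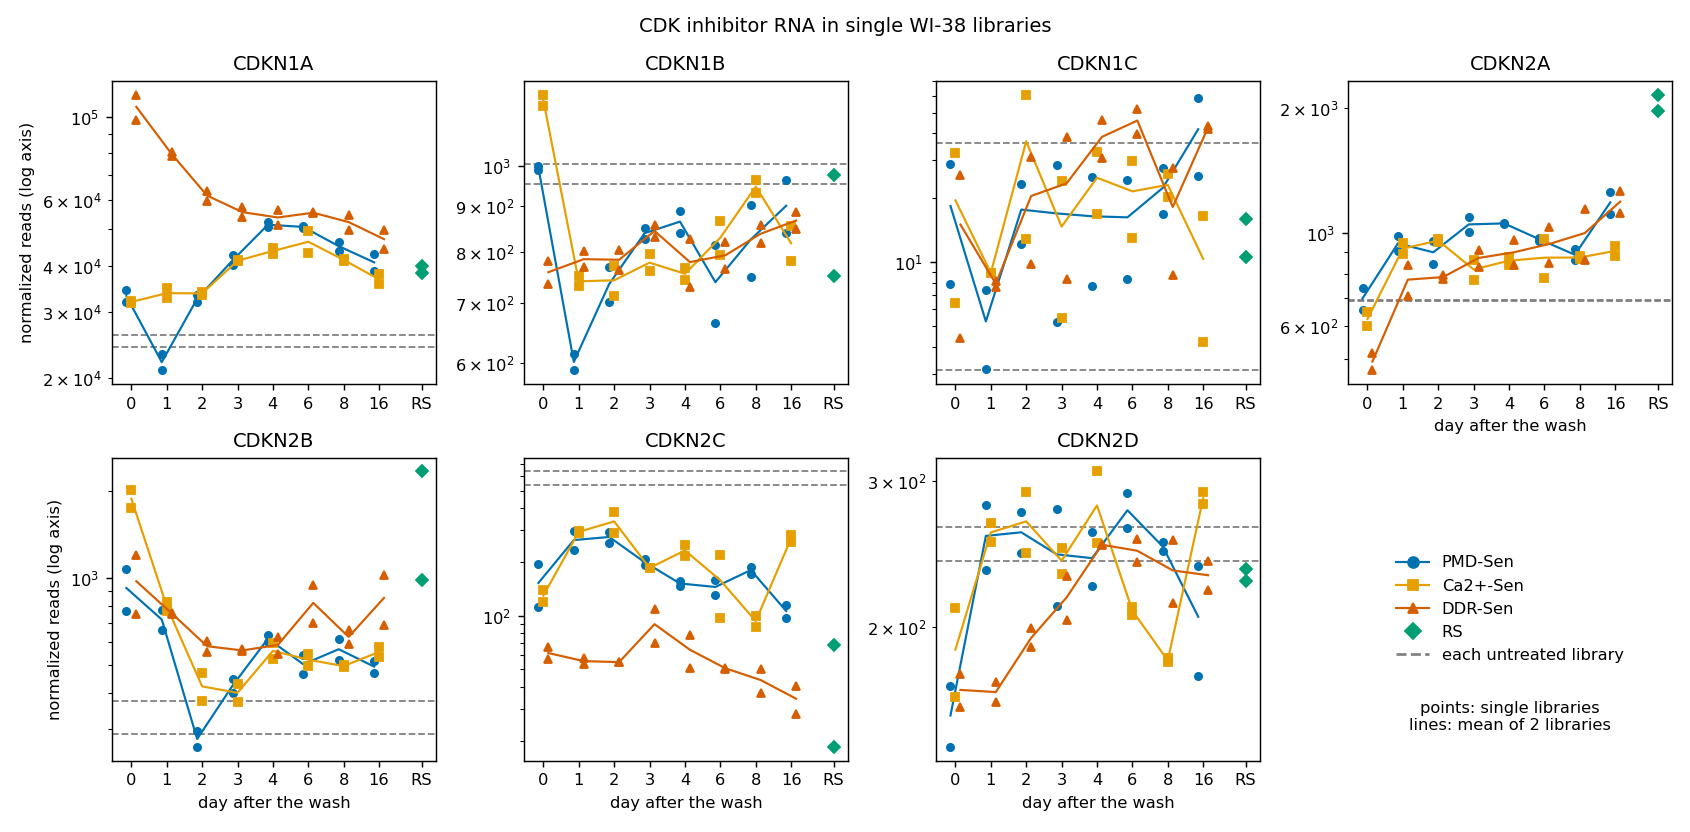
Normalized reads of each gene (log axis) against the day after the wash, spaced evenly and not to scale, with a point for each library, a line through the mean of the 2 libraries of each inducer, RS at the right and dashed lines at the 2 untreated libraries. The points of CDKN1A in DDR-Sen start at 98555 and 114980 and come down to 44430 and 49724, and all points of CDKN2C lie below the dashed lines.

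CDKN1B, which encodes p27, an inhibitor of CDK2 in resting cells that is controlled largely through the stability of its protein, kept to a narrow range. Its mean level ran from 601 normalized reads on day 1 of PMD-Sen to 1185 on day 0 of Ca2+-Sen, a ratio of 1.97, and 23 of 25 neighbours in the order of groups overlapped. Untreated cells had 1004 and 953.7. It fell in 4 comparisons, of which day 1 of PMD-Sen was the lowest, at 614.3 and 588.3 (log2 fold change −0.70, SE 0.15, Benjamini-Hochberg adjusted p = 4.86e-05). The others were day 2 of PMD-Sen (log2 fold change −0.41), day 1 of Ca2+-Sen (−0.40) and day 0 of DDR-Sen (−0.37). Days 1 and 2 of PMD-Sen were also days of low fibroblast marker sums (395177 and 393736 against 746132 in untreated cells), whose part in the falls was not tested. The call of day 1 of PMD-Sen held without any single library, while the other 3 were lost without at least 1 of the 4 libraries compared, at log2 fold changes between −0.44 and −0.33. Without the larger untreated library all 3 were lost, without the smaller 2, without the larger treated library 3 and without the smaller 2. Both treated libraries were below both untreated ones in 20 comparisons and above them in 1, day 0 of Ca2+-Sen, with 1202 and 1169 (log2 fold change 0.28, SE 0.13, Benjamini-Hochberg adjusted p = 0.0552). That value was called over genes with a mean of at least 100 (Benjamini-Hochberg adjusted p = 0.0448), with scaling by library totals (0.0160) and with centring on the median (0.0323). With no filter on low values, the calls of day 1 of Ca2+-Sen (0.0539) and day 0 of DDR-Sen (0.0856) were lost, the former also with library totals (0.0639).

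CDKN1C, which encodes p57, an inhibitor with roles in development, was close to the limit of detection. The untreated libraries had 2 and 19 reads, or 3.10 and 35.9 normalized reads, and the libraries of a group differed by up to 11.6-fold. Its libraries overlapped the untreated ones in 23 of 25 comparisons. The largest positive log2 fold change was 1.26 (SE 0.83) on day 6 of DDR-Sen, with 39.6 and 52.2 normalized reads (Benjamini-Hochberg adjusted p = 0.313), and the lowest was −1.92 (SE 1.26) on day 1 of PMD-Sen, with 3.17 and 7.35 (Benjamini-Hochberg adjusted p = 0.350). Both libraries of that day of PMD-Sen lay between the untreated ones, so the sign of its change depends on which untreated library is taken. The size of the change on day 6 of DDR-Sen depends on it too. Of its 25 comparisons, 0 had an unadjusted p under 0.05. Its standard errors lay between 0.80 and 1.26 on the log2 scale.

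CDKN2A, whose value pools p16INK4A and p14ARF, was highest in RS. The untreated libraries had 692 and 687 normalized reads, and the RS libraries had 2150 and 1962, a 2.98-fold rise (log2 fold change 1.58, SE 0.17, Benjamini-Hochberg adjusted p = 6.13e-19). RS was followed by day 16 of DDR-Sen, with 1119 and 1263 (log2 fold change 0.79, SE 0.16), and day 16 of PMD-Sen, with 1115 and 1258 (log2 fold change 0.78, SE 0.18), and the libraries of those last 2 overlapped each other but not those of RS. The lowest level was on day 0 of DDR-Sen, at 468.5 and 515.5, the single fall of the gene (log2 fold change −0.49, SE 0.16, Benjamini-Hochberg adjusted p = 0.0129). CDKN2A was therefore low where CDKN1A was highest. In all, it rose in 6 of 8 comparisons of PMD-Sen, 3 of 8 of Ca2+-Sen, 4 of 8 of DDR-Sen and in RS. On day 16 of Ca2+-Sen, the libraries had 933.8 and 880.9 (log2 fold change 0.40, SE 0.14, Benjamini-Hochberg adjusted p = 0.0530, and 0.0394 over genes with a mean of at least 100). The rises in RS, on days 3, 4 and 16 of PMD-Sen and on day 16 of DDR-Sen held without any single library. The other 9 rises were lost without at least 1 library, at log2 fold changes between 0.28 and 0.54. All 9 were lost without the larger and without the smaller untreated library, 5 without the larger treated library and 8 without the smaller. With no filter on low values, 5 of these rises, on days 2 and 6 of PMD-Sen, days 1 and 8 of Ca2+-Sen and day 4 of DDR-Sen, had a Benjamini-Hochberg adjusted p between 0.0596 and 0.0959. Day 2 of PMD-Sen was also lost with library totals (Benjamini-Hochberg adjusted p = 0.0711) and with centring on the median (0.0597), day 8 of Ca2+-Sen with totals (0.0662) and day 4 of DDR-Sen with centring (0.0517). On day 8 of DDR-Sen, the log2 fold change went from 0.54 to 0.32 without the smaller treated library. The fall on day 0 of DDR-Sen was lost without the larger untreated library and without the larger treated one, at −0.48 and −0.42.

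CDKN2B encodes p15, an inhibitor of CDK4 and CDK6 known as a target of TGF-beta signaling, and it was highest directly after KCl and in RS. In untreated cells, the libraries had 373.9 and 289.0 normalized reads. On day 0 of Ca2+-Sen, the libraries had 1746 and 2017, a 5.65-fold rise (log2 fold change 2.50, SE 0.16, Benjamini-Hochberg adjusted p = 9.57e-55). This was also the group with the lowest fibroblast and the highest endothelial marker sums, whose part in the rise was not tested. The level was back near that of untreated cells by day 2 of Ca2+-Sen and of PMD-Sen. On day 2 of Ca2+-Sen, the libraries had 374.8 and 468.1 (log2 fold change 0.34, SE 0.22, Benjamini-Hochberg adjusted p = 0.608). PMD-Sen had 768.8 and 1077 on day 0 (log2 fold change 1.47, SE 0.22, Benjamini-Hochberg adjusted p = 1.32e-10) and 259.9 and 294.4 on day 2, where its libraries overlapped the untreated ones (log2 fold change −0.26, SE 0.21, Benjamini-Hochberg adjusted p = 0.518). It was called higher again on days 4 (log2 fold change 0.89, SE 0.19) and 8 (0.77, SE 0.22) of PMD-Sen and on days 4, 6, 8 and 16 of Ca2+-Sen (0.58 to 0.75). In DDR-Sen the gene was called higher on all 8 days. Its log2 fold change there was 1.55 (SE 0.23) on day 0, with 750.1 and 1198 normalized reads, 0.76 (SE 0.20) on day 3, with 565.6 and 557.0, and 1.36 (SE 0.23) on day 16, with 685.5 and 1021. The RS libraries stood far apart, at 986.3 and 2338 (log2 fold change 2.32, SE 0.40, Benjamini-Hochberg adjusted p = 1.83e-07), and without the smaller RS library the log2 fold change was 1.57 and still called. Of the 19 rises, 7 were lost without at least 1 library, at log2 fold changes between 0.41 and 0.72, on day 8 of PMD-Sen, on days 4, 6, 8 and 16 of Ca2+-Sen and on days 2 and 3 of DDR-Sen. All 7 were lost without the smaller untreated library, 3 without the larger treated library and 2 without the smaller. That of day 6 of Ca2+-Sen was also lost with no filter on low values (Benjamini-Hochberg adjusted p = 0.0831). CDKN2B-AS1, the overlapping antisense gene, was called in 0 of 25 comparisons, with 17 and 15 reads in the untreated libraries and mean levels between 16.1 and 32.8 normalized reads, and 0 of its comparisons had an unadjusted p under 0.05.

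CDKN2C encodes p18, an INK4 protein whose gene is known as a target of E2F factors, and it fell in all 25 comparisons, with both treated libraries below both untreated ones in each. Untreated cells had 639.2 and 534.5 normalized reads. On day 0 of DDR-Sen, the libraries had 57.10 and 66.33 (log2 fold change −3.25, SE 0.23), and on day 16, the lowest group of all, 40.32 and 28.23, or 0.0588 of the untreated level (log2 fold change −4.09, SE 0.29, Benjamini-Hochberg adjusted p = 2.12e-43). DDR-Sen thus held a deep fall from the first day to the last. PMD-Sen and Ca2+-Sen were instead low on day 0, higher on days 1 and 2 and lower again by day 8. Ca2+-Sen then rose again by day 16, while PMD-Sen was at its lowest there. In PMD-Sen, the libraries had 111.2 and 193.3 on day 0 (log2 fold change −1.95, SE 0.27), 294.5 and 255.5 on day 2 (−1.09, SE 0.18) and 115.0 and 97.12 on day 16 (−2.47, SE 0.25). In Ca2+-Sen they had 119.4 and 139.4 on day 0 (log2 fold change −2.19, SE 0.21), 291.0 and 381.1 on day 2 (−0.81, SE 0.20), 99.56 and 86.64 on day 8 (−2.66, SE 0.22) and 283.5 and 257.0 on day 16 (−1.12, SE 0.20). The call of day 2 of Ca2+-Sen was lost without the larger untreated library, at −0.67, and without the larger treated one, at −0.62. On day 6 of Ca2+-Sen, the libraries stood apart at 218.2 and 96.82 (log2 fold change −1.89, SE 0.34), and without the larger the log2 fold change was −2.60. The RS libraries had 68.73 and 18.41 (log2 fold change −3.74, SE 0.52, Benjamini-Hochberg adjusted p = 4.23e-11), and the log2 fold change was −4.99 without the larger and −3.09 without the smaller, called in both.

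The level of CDKN2C ran with that of genes of dividing cells. Over the 25 groups other than untreated, its log2 level had a Pearson correlation of 0.961 with the mean log2 level of 8 proliferation markers (MKI67, TOP2A, PCNA, MCM2, MCM5, LMNB1, BUB1 and AURKB). For the other members this correlation was −0.70 (CDKN1A), −0.47 (CDKN2B), −0.26 (CDKN1B), −0.23 (CDKN1C), −0.04 (CDKN2A) and 0.57 (CDKN2D). The summed level of the 8 markers was 19505 normalized reads in untreated cells, 12280 on day 2 and 9535 on day 16 of Ca2+-Sen, 12833 on day 2 and 4421 on day 16 of PMD-Sen, 2762 on day 16 of DDR-Sen and 2415 in RS. On day 0 of DDR-Sen it was 9504, near that of day 16 of Ca2+-Sen, while the mean level of CDKN2C was 61.72 there and 270.2 on that day of Ca2+-Sen. PCNA, the clamp of DNA polymerases, made up 8516 of that sum and rose (log2 fold change 1.64, SE 0.14), whereas the other 7 markers fell. The groups come from 3 time courses and RS, days of an inducer share a treatment, and both measures in a group come from the same libraries, so the correlation is a description. The part that the share of dividing cells had in the fall of CDKN2C was not tested. The window shown for CDKN2C holds the E2F core, which is a match of letters and not evidence that a factor bound there.

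**Figure D3:**
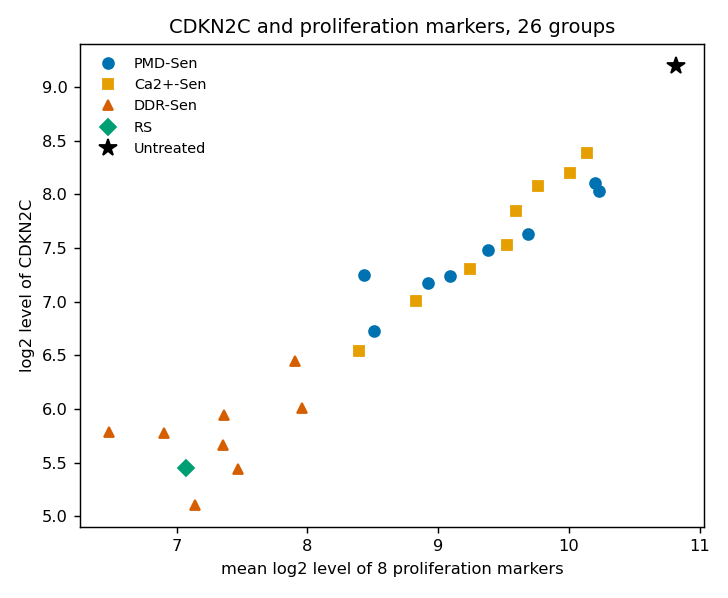
Log2 level of CDKN2C against the mean log2 level of 8 proliferation markers, with a point for each of the 26 groups, marked by inducer. The points run from RS and DDR-Sen at the lower left to untreated cells at the upper right, with a Pearson correlation of 0.961 over the 25 groups other than untreated.

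CDKN2D encodes p19, the INK4 protein whose RNA normally peaks in S phase, and it changed least. The untreated libraries had 240.5 and 264.4 normalized reads, the mean levels of all groups lay between 157 and 286, and 24 of 25 neighbours in the order of groups overlapped. It fell in 1 comparison, day 0 of PMD-Sen, at 143.5 and 169.8 (log2 fold change −0.69, SE 0.29, Benjamini-Hochberg adjusted p = 0.0463). That call was lost without each of the 4 libraries in turn, at log2 fold changes between −0.81 and −0.57, and also with no filter on low values (Benjamini-Hochberg adjusted p = 0.0845) and with library totals (0.0589). Day 0 of DDR-Sen had 175.7 and 160.5 (log2 fold change −0.58, SE 0.24, Benjamini-Hochberg adjusted p = 0.0544, and 0.0432 over genes with a mean of at least 100), and day 0 of Ca2+-Sen had 164.9 and 211.1 (log2 fold change −0.43, SE 0.25, Benjamini-Hochberg adjusted p = 0.150).

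Which inhibitors differed between inducers was tested by dividing the gap between log2 fold changes by the combined standard error (the root of both squared errors added), with p adjusted over all tested genes. The comparisons share the untreated libraries, whose error is thereby counted more than once, so too few calls result. On day 0, 7 of 21 results were called. The background was 27.4% for PMD-Sen against DDR-Sen, 35.5% for Ca2+-Sen against DDR-Sen and 36.9% for PMD-Sen against Ca2+-Sen. CDKN1A separated DXR from the other inducers, being lower than in DDR-Sen by 1.69 (95% interval of the log2 difference −1.97 to −1.41) in PMD-Sen and by 1.74 (−2.0 to −1.48) in Ca2+-Sen. CDKN2B separated KCl from the others. It was higher in Ca2+-Sen than in DDR-Sen by 0.95 (interval 0.40 to 1.49) and lower in PMD-Sen than in Ca2+-Sen by 1.02 (interval −1.55 to −0.50). CDKN1B was also higher in Ca2+-Sen than in DDR-Sen, by 0.64 (interval 0.27 to 1.02). CDKN2C was higher in PMD-Sen and in Ca2+-Sen than in DDR-Sen, by 1.30 (interval 0.61 to 1.99) and 1.06 (interval 0.46 to 1.67) on the log2 scale. The difference of CDKN2C between PMD-Sen and DDR-Sen was 0.85 and not called without the smaller PMD-Sen library, and that of CDKN2B between Ca2+-Sen and DDR-Sen was 0.65 and not called without the larger DDR-Sen library.

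By day 16, CDKN2C was the gene of the 7 called between inducers, in all 3 of its comparisons, and 3 of 21 results were called in all. The background was 0.187% for PMD-Sen against DDR-Sen, 6.06% for Ca2+-Sen against DDR-Sen and 2.60% for PMD-Sen against Ca2+-Sen. CDKN2C had mean levels of 270.2 normalized reads in Ca2+-Sen, 106.0 in PMD-Sen and 34.28 in DDR-Sen. It was higher in Ca2+-Sen than in DDR-Sen by 2.97 on the log2 scale (interval 2.29 to 3.65, Benjamini-Hochberg adjusted p = 3.76e-15), higher in PMD-Sen than in DDR-Sen by 1.62 (interval 0.87 to 2.37, Benjamini-Hochberg adjusted p = 0.0174) and lower in PMD-Sen than in Ca2+-Sen by 1.35 (interval −1.97 to −0.72, Benjamini-Hochberg adjusted p = 0.00271). The call between PMD-Sen and DDR-Sen was lost without the larger PMD-Sen library (1.49) and without the smaller DDR-Sen library (1.40). It was also lost without either untreated library, where the difference stayed at 1.62 and only its error grew. CDKN1A on day 16 gave a log2 difference of −0.21 for PMD-Sen against DDR-Sen (interval −0.54 to 0.13, Benjamini-Hochberg adjusted p = 1.000). For Ca2+-Sen against DDR-Sen its log2 difference was −0.36 (interval −0.62 to −0.10, Benjamini-Hochberg adjusted p = 0.0856). It was called where libraries were scaled by their totals (log2 difference −0.42, Benjamini-Hochberg adjusted p = 0.0272). With each squared standard error multiplied by 0.5 it was also called (Benjamini-Hochberg adjusted p = 0.00149), as was CDKN2B in that comparison (log2 difference −0.62, Benjamini-Hochberg adjusted p = 0.0289).

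**Figure D4:**
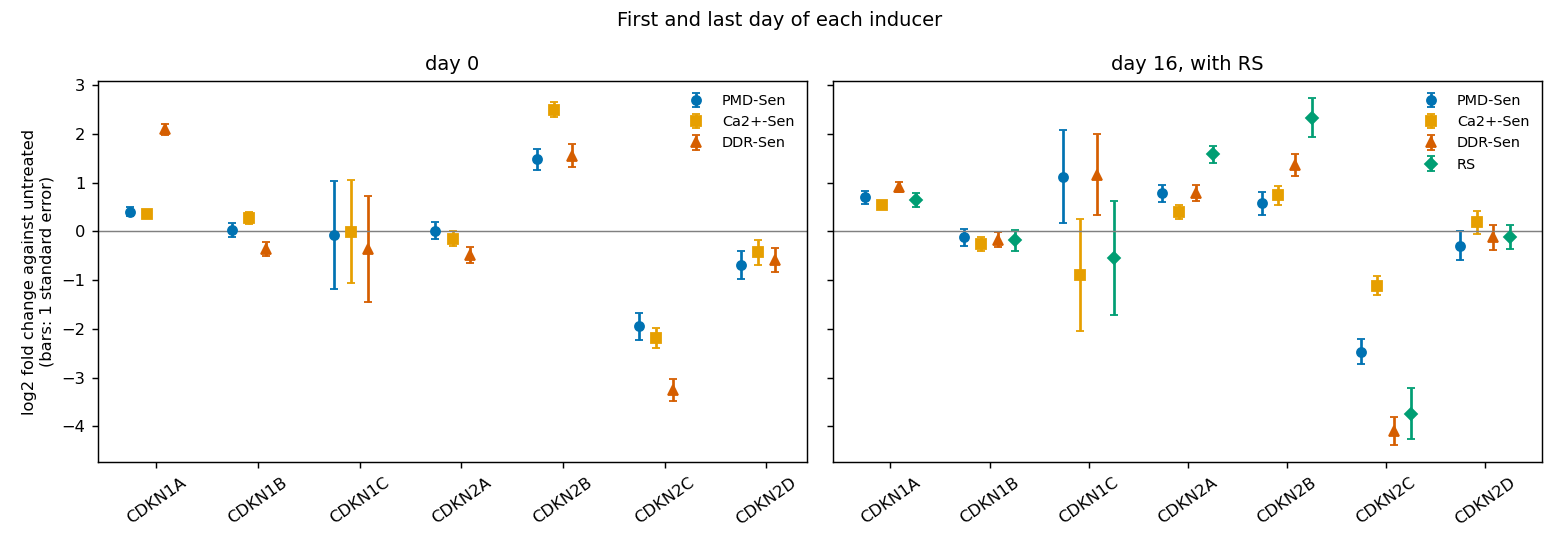
Log2 fold change against untreated cells of each gene on day 0 (left) and on day 16 with RS (right), with bars of 1 standard error. On day 0 CDKN1A of DDR-Sen stands at 2.09 above the other inducers and CDKN2B of Ca2+-Sen at 2.50, and on day 16 the inducers are spread in CDKN2C from −1.12 (Ca2+-Sen) to −4.09 (DDR-Sen).

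Between day 0 and day 16 of the same inducer, 8 of 21 results were called, beside a background of 27.0% in PMD-Sen, 32.9% in Ca2+-Sen and 12.1% in DDR-Sen. CDKN2A had a higher level at day 16 than at day 0 after each inducer. Its log2 difference was 0.77 in PMD-Sen (interval 0.28 to 1.25), 0.55 in Ca2+-Sen (interval 0.14 to 0.95) and 1.28 in DDR-Sen (interval 0.83 to 1.72). The days between did not show a steady rise in PMD-Sen or Ca2+-Sen. Mean levels of CDKN2A in Ca2+-Sen went from 622 normalized reads (day 0) to 918 (day 1), 961 (day 2) and 907 (day 16). Those in PMD-Sen went from 697 (day 0) to 1056 (day 4), 888 (day 8) and 1186 (day 16). The mean level in DDR-Sen rose at each collection, from 492 to 1191. CDKN1A fell by 1.18 in DDR-Sen (interval −1.48 to −0.88, Benjamini-Hochberg adjusted p = 3.34e-12). CDKN1A and CDKN2A thus moved in opposite directions in DDR-Sen, where CDKN1B (0.19, interval −0.22 to 0.61) and CDKN2B (−0.19, interval −0.83 to 0.45) were not called. CDKN2B fell by 0.90 in PMD-Sen (interval −1.53 to −0.28) and by 1.76 in Ca2+-Sen (interval −2.25 to −1.26). In Ca2+-Sen, CDKN2C rose by 1.07 (interval 0.51 to 1.63) and CDKN1B fell by 0.54 (interval −0.90 to −0.17). Of these, the difference of CDKN2A in PMD-Sen was lost without the smaller library of day 16 (0.68). That of CDKN2A in Ca2+-Sen was lost without either untreated library, the larger library of day 16 or the larger of day 0 (0.49 to 0.55), and with no filter on low values (Benjamini-Hochberg adjusted p = 0.0529) or scaling by library totals (0.0615). That of CDKN2B in PMD-Sen was lost without either untreated library or the smaller library of either day (−0.91 to −0.64). That of CDKN1B in Ca2+-Sen was lost without either untreated library or the larger library of day 16 (−0.54 to −0.47). The losses without an untreated library came with almost no change in size. The untreated level is shared, and only its error, counted in both fold changes, grew.

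RS was set against day 16 of each inducer, and 4 of 21 results were called, beside a background of 0.659% for PMD-Sen, 4.06% for Ca2+-Sen and 0.142% for DDR-Sen. On day 16 of Ca2+-Sen, CDKN2A was lower than in RS by 1.18 (interval −1.61 to −0.75, Benjamini-Hochberg adjusted p = 9.86e-06), CDKN2B lower by 1.59 (interval −2.46 to −0.71, Benjamini-Hochberg adjusted p = 0.0138) and CDKN2C higher by 2.62 (interval 1.53 to 3.72, Benjamini-Hochberg adjusted p = 2.11e-04). On day 16 of PMD-Sen, CDKN2B was lower than in RS by 1.75 (interval −2.66 to −0.84, Benjamini-Hochberg adjusted p = 0.0319, and 0.0582 with no filter on low values). Day 16 of DDR-Sen gave 0 calls for the 7 genes by the same test, and 2 of them, CDKN2A and CDKN2B, had an unadjusted p under 0.05 (log2 differences −0.79 and −0.96). With each squared standard error multiplied by 0.5, CDKN2A was called lower than in RS in DDR-Sen (Benjamini-Hochberg adjusted p = 5.42e-04) and in PMD-Sen (log2 difference −0.79, Benjamini-Hochberg adjusted p = 3.69e-04), and CDKN2C higher in PMD-Sen (1.27, Benjamini-Hochberg adjusted p = 0.0448). These results lean on the RS libraries. Without the smaller RS library, CDKN2B differed by −1.0 in PMD-Sen and −0.83 in Ca2+-Sen, CDKN2C in Ca2+-Sen by 1.97, and none of the 3 was called, and without the larger RS library CDKN2C in Ca2+-Sen differed by 3.87 and was called. Without either untreated library, both differences of CDKN2B kept their size, at −1.76 to −1.58. Their calls were lost there because the untreated error, which is counted in both fold changes, grew. The call of CDKN2B in PMD-Sen was also lost without the smaller library of day 16, at −1.69.

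The partners and regulators of the inhibitors were followed on a list of 41 genes, of which 39 were tested: CDK1, CDK2, CDK4 and CDK6, 7 cyclins, the RB family, E2F and DP factors and regulators of the inhibitors. On day 0, 8 rose and 17 fell in PMD-Sen, 8 rose and 20 fell in Ca2+-Sen, and 6 rose and 17 fell in DDR-Sen, where 38.3%, 48.5% and 26.7% of all tested genes were called in either direction. On day 16, 8 rose and 16 fell in PMD-Sen, 3 rose and 10 fell in Ca2+-Sen, and 7 rose and 19 fell in DDR-Sen, while 5 rose and 14 fell in RS, beside 20.3%, 11.3%, 28.7% and 22.3% of all tested genes in that order. The median log2 fold change of the list lay between −0.37 and −0.12 over the 25 comparisons, whereas that of all tested genes lay within 0.028 of 0. CDK1, the kinase of mitosis, went from 914 normalized reads in untreated cells to 24.3 on day 0 of DDR-Sen (log2 fold change −5.23, SE 0.24), and E2F8, a repressor of the E2F family, from 80.6 to 2.66 (log2 fold change −4.92, SE 0.70). CCNB1, the cyclin of mitosis, fell by 3.83 there on the log2 scale (SE 0.14). E2F8 also had the largest fall of the tested genes of the list on day 0 of PMD-Sen (log2 fold change −3.43, SE 0.71) and of Ca2+-Sen (−3.81, SE 0.63). On day 0 of PMD-Sen, CCNE2, an E-type cyclin that activates CDK2, fell by 3.29 (SE 0.50) and CCNA2, the cyclin of S phase, by 2.61 (SE 0.19). On day 16 of Ca2+-Sen, the falls were smaller, at −1.27 (SE 0.13) for CCNA2 and −1.14 (SE 0.37) for CCNE2. The values of CDK1 on day 16 of PMD-Sen (log2 fold change −2.86, SE 0.99) and in RS (−4.52, SE 0.98) carried a large error.

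CCND2, a D-type cyclin and thus a partner of the kinases that INK4 proteins inhibit, rose the most on the list at the late times. It had 410 normalized reads in untreated cells and a mean level of 2605 on day 16 of Ca2+-Sen (log2 fold change 2.67, SE 0.13), 4099 on day 16 of PMD-Sen (3.32, SE 0.18), 8800 on day 16 of DDR-Sen (4.42, SE 0.13) and 15675 in RS (5.25, SE 0.20). The remaining genes of this paragraph were chosen after their values were seen. CCND1, the other main D-type cyclin of these cells, fell on day 0 of PMD-Sen (log2 fold change −1.17, SE 0.12) and Ca2+-Sen (−0.90, SE 0.07) and rose on day 16 of all 3 inducers, from 0.50 (SE 0.17) to 0.73 (SE 0.11), and in RS (0.83, SE 0.14). EZH2, the methyltransferase of the Polycomb complex that represses CDKN2A in dividing cells, fell in all 25 comparisons, among them day 16 of DDR-Sen (−2.80, SE 0.26), RS (−2.81, SE 0.31), day 16 of PMD-Sen (−2.22, SE 0.25) and day 16 of Ca2+-Sen (−0.89, SE 0.20). SKP2, which marks p27 for breakdown, fell by 2.22 on day 0 of PMD-Sen (SE 0.17), where CDKN1B itself had a log2 fold change of 0.02 (SE 0.15).

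**Figure D5:**
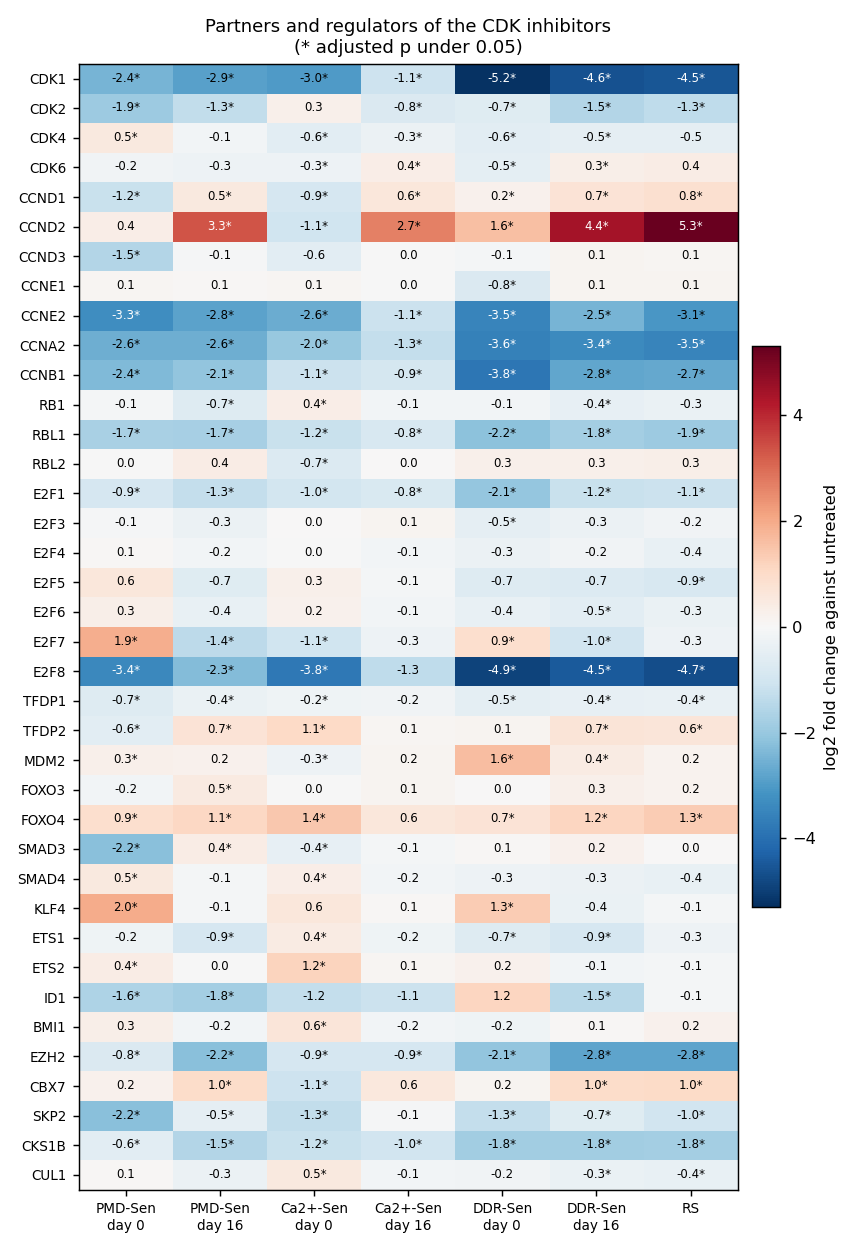
Log2 fold changes against untreated cells of 38 of the tested partners and regulators (rows) on days 0 and 16 of each inducer and in RS (columns), with an asterisk at an adjusted p under 0.05. CCND2 is the deepest red on day 16 and in RS, up to 5.25, and CDK1 and E2F8 are among the deepest blue, down to −5.23 and −4.92 on day 0 of DDR-Sen.

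The genes most like each inhibitor were found by the Pearson correlation of log2 levels over the 25 groups other than untreated, among 10949 other genes (10950 for CDKN1C) that averaged 100 or more normalized reads. Groups of an inducer share a treatment, and depth is shared by the genes of a library. CDKN1A was most like LYNX1 (0.923), MDM2 (0.922) and ACER2 (0.918). MDM2, which encodes a ubiquitin ligase, rose on day 0 of DDR-Sen from 3910 to 12250 normalized reads (log2 fold change 1.65, SE 0.11) and had a log2 fold change of 0.27 (SE 0.10) on day 0 of PMD-Sen and −0.26 (SE 0.09) on day 0 of Ca2+-Sen, where it fell. CDKN2C was most like SKA3 (0.966), AURKB (0.964) and CENPF (0.963), genes of mitosis, of which AURKB is also on the list of proliferation markers. CDKN2A was most like PRUNE2 (0.899), DENND5A (0.863) and ENPP4 (0.846), and CDKN1B most like ZRANB1 (0.911), PRKRIP1 (0.887) and ALPK2 (0.886). CDKN2D was most like TONSL (0.888), MYPN (0.831) and C20orf27 (0.823), and CDKN2B most like JHY (0.840), PLOD2 (0.832) and USP9X (0.816). For CDKN1C, with few reads, the values were lower, at 0.644 for ATG14 and 0.637 for APTR. Among the inhibitors themselves, the highest pairwise correlation was 0.449, for CDKN2C with CDKN2D and for CDKN2A with CDKN2D, and the lowest was −0.63, for CDKN1A with CDKN2C. CDKN2A and CDKN2B, neighbours on chromosome 9, had 0.006.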

How the data were processed

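mRNA sequencing of WI-38 cells was analysed from the processed files of 52 libraries. The submitters' processing notes name Trim Galore, HISAT2, HTSeq, featureCounts, DESeq2 and GRCh38 or hg38. Versions, annotation and strand of counting are not given in the sources used here. The 52 files hold 25 distinct tables, and 27 repeat another and were not used. In each the authors deposited, for 1 treated group against untreated cells, a mean of normalized counts (a signal that is never negative), a log2 fold change, its standard error, a test statistic, and a p-value and adjusted p-value. These are the authors' own comparisons. The p-values, log2 fold changes and standard errors printed for a group against untreated cells with all libraries are theirs. Differences between treated groups, values without a library and adjusted p-values (Benjamini-Hochberg method, over 15479 genes with a mean of at least 10) were computed here. A row that names no gene, in 23 of the tables, was left out (at most 0.00223% of the summed mean).

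The 8645 genes whose mean exceeded 200 in each table put them on a common scale. Reads of single libraries were recovered for 8 genes as the whole numbers that give the deposited means and come closest to the deposited fold changes (largest gap 5.9e-06 on the log2 scale). For 6 genes 1 pair gave each mean. CDKN1B had a second pair in 1 table, with a gap of 0.042. CDKN1A had up to 21 pairs in 15 tables, and its choice rests on the fold change: the chosen pairs had gaps of at most 1.3e-07 and the nearest other pair 4.4e-06. The libraries carry no replicate number and are named by size. The count test planned for counts per library was not run, with 8 genes recovered. The test of differences between groups was tested on simulated data, as was the recovery of size factors and of treated reads with the untreated reads given. That simulation did not cover the search for the untreated reads, genes as abundant as CDKN1A or means given to fewer digits. Replicates are independent samples per the study's methods.

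The members, lists and tests were chosen with earlier results of these data known. Genes named are the 7 members, CDKN2B-AS1, the 3 pathway genes with the largest called change on days 0 and 16 and in RS, and the 3 genes most like each member. The text says where another gene was added, and a few that the rule names are not reported here. Alternatives were a mean of at least 100, no filter, library totals, centring on the median, smaller errors for differences and leaving out each library. Motifs were searched in RefSeq windows of GRCh38.p14, and exon lengths came from GENCODE. Scripts ran under Python 3.11.15 with numba 0.67.0, SciPy 1.17.1, pandas 2.3.3, NumPy 2.4.6 and matplotlib 3.10.9.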

Additional observations from a re-analysis of the deposited data

Results flagged for a closer look

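Differences between treated groups were flagged where the test of the difference itself passed the threshold, and 22 results did. On day 0, 7 of 21 passed, near the share of all tested genes (27.4% to 36.9%), so they do not stand out as a set. That share was 0.187% to 6.06% between inducers on day 16, 12.1% to 32.9% between day 16 and day 0 and 0.142% to 4.06% against RS. The flagged results of day 0 on the log2 scale were CDKN1A (−1.69) and CDKN2C (1.30) for PMD-Sen against DDR-Sen, CDKN1A (−1.74), CDKN1B (0.64), CDKN2B (0.95) and CDKN2C (1.06) for Ca2+-Sen against DDR-Sen, and CDKN2B (−1.02) for PMD-Sen against Ca2+-Sen. Those of day 16 were all of CDKN2C, at 1.62 for PMD-Sen against DDR-Sen, 2.97 for Ca2+-Sen against DDR-Sen and −1.35 for PMD-Sen against Ca2+-Sen.

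From day 0 to day 16 the differences were CDKN2A (0.77) and CDKN2B (−0.90) in PMD-Sen, CDKN1B (−0.54), CDKN2A (0.55), CDKN2B (−1.76) and CDKN2C (1.07) in Ca2+-Sen, and CDKN1A (−1.18) and CDKN2A (1.28) in DDR-Sen. Against RS they were CDKN2B (−1.75) on day 16 of PMD-Sen, and CDKN2A (−1.18), CDKN2B (−1.59) and CDKN2C (2.62) on day 16 of Ca2+-Sen. Groups had 2 libraries each, too few to single out a library that stands apart from the rest of its group.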

How the results depend on the processing

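No result of a family gene changed direction under the alternatives run while it was called. Of 110 called results, 78 kept their call without each library in turn. Among the larger moves, the log2 fold change of CDKN2C in RS went from −3.74 to −4.99 without the larger RS library. That of CDKN2B in RS went from 2.32 to 1.57 without the smaller, and that of CDKN2A on day 8 of DDR-Sen from 0.54 to 0.32 without the smaller treated library. Without a library, the spread of a gene was kept at that fitted with all libraries of the comparison, and the p threshold was kept too. For differences between treated groups the untreated level is shared. Leaving out an untreated library there changed the error and hardly the size. Each squared standard error was also multiplied by 0.5, which counts the shared untreated libraries less. The calls then went from 3 to 5 between inducers on day 16 and from 4 to 7 between day 16 and RS. On day 0, CDKN1B and CDKN2A were gained for PMD-Sen against DDR-Sen. Between day 16 and day 0, CDKN1A was gained in PMD-Sen and Ca2+-Sen, CDKN2D in Ca2+-Sen and CDKN2C in DDR-Sen. That setting makes every error smaller, and the calls of all tested genes went from 4241 to 6450 for PMD-Sen against DDR-Sen on day 0. On day 16 they went from 29 to 199 for PMD-Sen against DDR-Sen, 938 to 2309 for Ca2+-Sen against DDR-Sen and 402 to 1526 for PMD-Sen against Ca2+-Sen. Between day 16 and day 0 they went from 4179 to 6383 in PMD-Sen and 1869 to 3907 in DDR-Sen, and against RS from 102 to 719 for PMD-Sen, 628 to 1891 for Ca2+-Sen and 22 to 143 for DDR-Sen. With no filter on low values, PMD-Sen against RS had 67 calls in place of 102. Scaling by library totals moved the share of calls that were higher on day 1 of Ca2+-Sen from 42.9% to 55.9%. Other groups moved too, among them day 1 of PMD-Sen (49.3% to 58.4%) and day 6 of DDR-Sen (43.6% to 52.0%). Day 2 of PMD-Sen (55.7% to 48.7%) and RS (50.5% to 46.6%) moved the other way. No paired analysis was possible because the recovered libraries carry no replicate number. The untreated libraries, the smallest of all, entered every comparison, and how far their size limited the results was not tested.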
